A study of Homo sapiens with 12 samples.

Results

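Regions of open chromatin that changed alike in both MLL1-rearranged lines after VTP50469 were looked for in the 8 libraries of MOLM13 and MV4-11, of 12 in the series. The members were every library of these lines: 4 of cells given 500 nM VTP50469 for 16 h (2 of MOLM13, 2 of MV4-11), against 4 of control cells (2 and 2), whose vehicle and time the labels do not give. Accessible DNA was cut by the transposase Tn5 and sequenced from whole cultures (ATAC-seq). Cells were frozen before nuclei were isolated, each line stands for 1 leukaemia, and MOLM13 was grown in RPMI and MV4-11 in IMDM, so that line and medium cannot be told apart. OCI-AML3, a line with mutant NPM1 (2 VTP50469 and 2 control libraries), served only for comparison. The labels do not say that the libraries of a group came from separate cultures, so p-values measure the spread between libraries, which may be technical.

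MLL1 (KMT2A) is a histone methyltransferase that menin helps to tether to chromatin. In MOLM13 and MV4-11 a translocation joins the front of MLL1 to another protein (MLLT3 in MOLM13, AFF1 in MV4-11), and the fusion keeps the part that binds menin. Such fusions hold the genes of HOXA9, its partner MEIS1, and other stem and progenitor genes active. VTP50469, named SNDX-50469 in the study, blocks the contact between menin and MLL1, and menin inhibitors are known to release a block of myeloid differentiation. The question was which sites opened or closed with the drug in both lines.

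The 8 libraries held 868374 peaks on chromosomes 1 to 22, from 93598 and 100831 in MOLM13 with VTP50469 against 77753 and 90270 in MOLM13 control, and from 112922 and 141695 in MV4-11 with VTP50469 against 122425 and 128880 in MV4-11 control. Peaks that overlapped by at least 1 bp merged into 261532 regions, of which 36370 were called in all 8 libraries and 129157 in 1 library alone. The labelled lineage was seen at promoters. Of 8 myeloid markers, 5 had a promoter peak in all 8 libraries (SPI1, MPO, LYZ, CEBPE and ITGAM), whereas of 6 erythroid markers 5 had one in none. CD3E, CD3G and MS4A1 had a promoter peak in none, but CD8A and BCL11B had one in all 8.

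Strength was compared over the regions called in all 8 libraries. Each peak carries the fold enrichment of reads at its summit over the local background of its own library. This fold was ranked within the library and turned into a normal score (0 is the middle region of the library, 1 is about 1 SD above it), and a shift is the mean score with VTP50469 minus that of control, averaged over the lines.

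The promoters whose values follow are shown first, as the 250 bases before the start site, 5′ to 3′ (RefSeq, GRCh38.p14). TTC28, chr22:28679841-28680090 on the minus strand, had the smallest p of the promoters considered that were lower with VTP50469 in both lines. LOC105377557, chr4:177301281-177301530, and IP6K1, chr3:49786543-49786792, both on the minus strand, had the smallest p of those considered that were higher in both lines. Promoters considered held the start of their gene, had a RefSeq window, and had treated and control libraries that did not overlap in either line. Not every chromosome was considered, so these are not the smallest p of all promoter regions tested. MEIS1, chr2:66434875-66435124, and ITGAM, chr16:31259725-31259974, both on the plus strand, are a fusion target and a differentiation gene. Capitals mark matches, on either strand, to the letters GAGGAAG (core of PU.1 sites), CCGGAAG (core of other ETS factors), TGTGGT (RUNX), TGACAGNT (MEIS) and CCAAT, and to the NRF1 site.
TTC28: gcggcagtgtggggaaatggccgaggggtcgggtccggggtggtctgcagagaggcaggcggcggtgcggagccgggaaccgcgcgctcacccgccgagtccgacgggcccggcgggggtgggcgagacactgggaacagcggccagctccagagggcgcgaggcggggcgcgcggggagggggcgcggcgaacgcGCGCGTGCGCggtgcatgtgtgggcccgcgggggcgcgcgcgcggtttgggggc
LOC105377557: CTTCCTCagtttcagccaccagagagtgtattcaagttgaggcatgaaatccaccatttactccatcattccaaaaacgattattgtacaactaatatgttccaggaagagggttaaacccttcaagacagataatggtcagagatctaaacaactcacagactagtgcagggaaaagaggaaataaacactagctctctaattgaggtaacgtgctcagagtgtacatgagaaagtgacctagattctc
IP6K1: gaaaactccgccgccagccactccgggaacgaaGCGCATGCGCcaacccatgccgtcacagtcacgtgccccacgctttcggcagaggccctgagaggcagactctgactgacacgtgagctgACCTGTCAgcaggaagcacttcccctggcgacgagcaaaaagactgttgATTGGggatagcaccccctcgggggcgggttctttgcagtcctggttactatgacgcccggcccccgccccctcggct
MEIS1: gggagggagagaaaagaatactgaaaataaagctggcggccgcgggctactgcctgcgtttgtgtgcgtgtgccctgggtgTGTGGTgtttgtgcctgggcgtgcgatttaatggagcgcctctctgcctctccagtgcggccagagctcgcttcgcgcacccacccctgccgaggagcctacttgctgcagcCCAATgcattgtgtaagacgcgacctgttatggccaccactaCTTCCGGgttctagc
ITGAM: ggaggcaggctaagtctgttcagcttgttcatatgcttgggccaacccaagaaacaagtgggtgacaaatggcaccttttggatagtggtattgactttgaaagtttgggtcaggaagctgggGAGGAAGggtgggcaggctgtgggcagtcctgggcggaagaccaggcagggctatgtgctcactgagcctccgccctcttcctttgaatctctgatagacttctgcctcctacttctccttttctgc

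No region of the 36370 passed the test for a shift shared by both lines at an adjusted p of 0.05 (limma, Benjamini-Hochberg), which is 0.0% of those tested, and the smallest adjusted p was 0.475. At an unadjusted p under 0.05, 1234 regions (3.39%) were lower and 1105 (3.04%) higher with VTP50469. The shifts of the lines were close to unrelated. Across the 36370 regions Pearson's r between the MOLM13 and the MV4-11 shift was 0.042, a description over regions that share their libraries, and 51.1% of regions shifted to the same side in both. Regions in which both VTP50469 libraries stood apart from both control libraries in each line, on the same side, numbered 1185 lower (3.26%) and 1192 higher (3.28%). Those that stood apart in opposite directions numbered 951 higher in MOLM13 and lower in MV4-11 (2.61%) and 1083 the reverse (2.98%). The median standard error of a shared shift was 0.32. When each line was fitted alone, 51 regions were lower and 55 higher in both at an unadjusted p under 0.05, against 98 that passed in opposite directions.

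**Figure D1:**
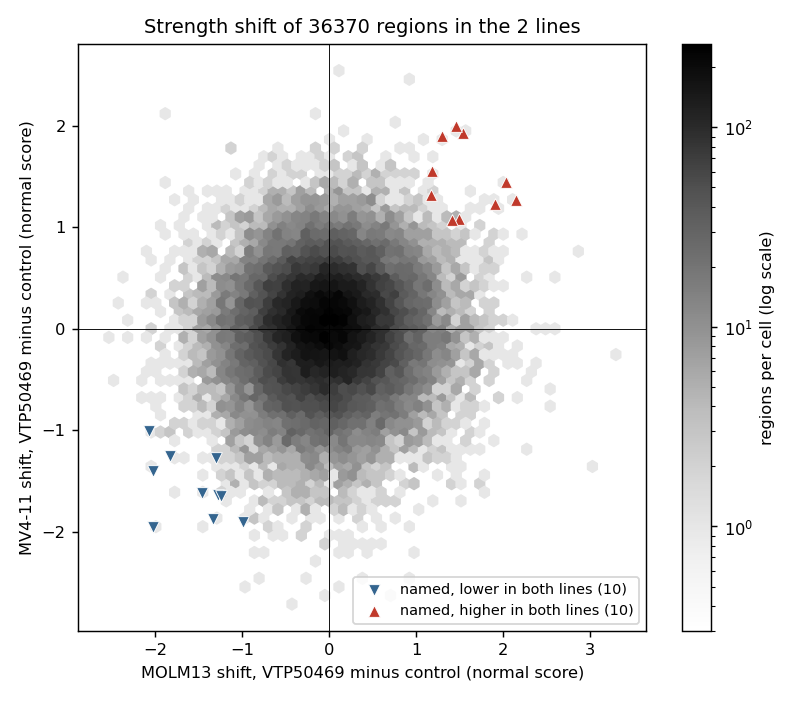
The shift of each of the 36370 regions in MOLM13 (x axis) against that in MV4-11 (y axis), VTP50469 minus control in normal scores, with grey cells shaded by the number of regions on a log scale. The cloud is round (r = 0.042); the 10 named lower regions (blue) and 10 named higher ones (red) lie at its edges because they were chosen there.

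The 20 regions named here are the 10 lower and 10 higher ones with the smallest p among those that stood apart in both lines. They were chosen by these values, which are therefore a description. They were 227 to 1233 bp wide, 15 of 20 lay in gene bodies and 0 at a promoter. Exons and introns were not told apart. Their adjusted p ranged from 0.475 to 0.602 (limma).

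Among the higher regions the smallest p was that of one in DST, which encodes dystonin, a linker of the cytoskeleton. The region, chr6:56708814-56709297, lay 134.7 kb from the nearest start of any gene. Its fold was 11.3 and 12.2 in MOLM13 with VTP50469 against 5.68 and 6.05 in control, and 11.5 and 14.3 in MV4-11 with VTP50469 against 6.28 and 5.91 in control. All 4 VTP50469 libraries stood above all 4 controls, with a shift of 1.73 ± 0.27 (SE, n = 8, adjusted p = 0.475, limma). When weaker peaks were left out (−log10 q under 5), this region alone passed the test, at 2.098 ± 0.29 (SE, adjusted p = 0.043, limma). No region passed the adjusted threshold in any other setting of the shared fit.

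A region in SMARCA2, chr9:2116196-2116554, the gene of the SWI/SNF remodelling ATPase BRM, had folds of 5.19 and 8.51 in MOLM13 with VTP50469 against 3.49 and 3.37 in control. In MV4-11 they were 9.71 and 7.36 with VTP50469 against 4.08 and 6.04 in control, a shared shift of 1.74 ± 0.34 (SE). In both lines the pairs of libraries did not overlap. The folds of a region in CTBP1, chr4:1218739-1219105, a transcriptional corepressor gene, were 5.78 and 5.27 in MOLM13 with VTP50469 against 3.79 and 3.64 in control, and 6.43 and 9.90 in MV4-11 with VTP50469 against 4.23 and 3.81 in control. Here all 4 VTP50469 libraries again lay above all 4 controls.

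PNPLA1, a lipid-metabolism gene, held a region at chr6:36312650-36313224 with folds of 8.98 and 11.5 in MOLM13 with VTP50469 against 4.08 and 5.52 in control, and of 16.9 and 13.8 in MV4-11 with VTP50469 against 9.35 and 10.5 in control. The level was higher in MV4-11, and the libraries were apart within each line only. LITAF, which encodes a protein of late endosomes and lysosomes, held one 2.57 kb from the nearest start of any gene (chr16:11584486-11584894). Its folds were 6.82 and 8.69 in MOLM13 with VTP50469 against 3.79 and 3.69 in control, and 7.35 and 5.79 in MV4-11 with VTP50469 against 5.27 and 3.52 in control. The other higher regions lay in CTIF (a translation initiation factor that binds the nuclear cap-binding complex), MIR124-2HG (a host transcript of a microRNA) and LOC124900818, and between genes nearest to NIHCOLE and LOC124902255, with shifts of 1.24 to 1.73.

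Among the lower regions one in CARM1, an arginine methyltransferase that acts on histone H3 and on coactivators, had the smallest p. It lay at chr19:10897098-10897602, 25.5 kb from the nearest start of any gene. Its fold was 4.64 and 5.32 in MOLM13 with VTP50469 against 7.74 and 8.24 in control, and 4.50 and 4.64 in MV4-11 with VTP50469 against 8.59 and 9.04 in control. All 4 VTP50469 libraries lay below all 4 controls, and the shift was -1.53 ± 0.26 (SE, n = 8, adjusted p = 0.475, limma).

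GALNT7, which encodes a glycosyltransferase that starts or extends mucin-type sugar chains, held a 227 bp region (chr4:173257837-173258063). Its folds were 3.82 and 4.56 in MOLM13 with VTP50469 against 6.91 and 8.73 in control, and 3.38 and 4.91 in MV4-11 with VTP50469 against 6.99 and 10.6 in control, with the lowest shift of the 20, -1.99 ± 0.33 (SE). All VTP50469 libraries were below all controls here too.

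In XRN2, which encodes a nuclear exonuclease used in the end of transcription, the fold of a region (chr20:21315140-21315638) was 4.54 and 7.92 in MOLM13 with VTP50469 against 7.83 and 10.7 in control, and 9.83 and 9.55 in MV4-11 with VTP50469 against 17.0 and 18.4 in control. By fold the MOLM13 pairs overlapped slightly, and they were apart only by rank within the library. A region 14.6 kb from the start of NICN1 (chr3:49443924-49444430) had 4.95 and 6.94 in MOLM13 with VTP50469 against 12.2 and 11.7 in control, and 8.81 and 9.60 in MV4-11 with VTP50469 against 14.4 and 12.5 in control. Other lower regions lay in CLSPN (claspin, a replication checkpoint mediator), ADAP1, SLC24A4 (a sodium, calcium and potassium exchanger), FAM3D-AS1 and near DLEU1-AS1, with shifts of -1.71 to -1.28.

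**Figure D2:**
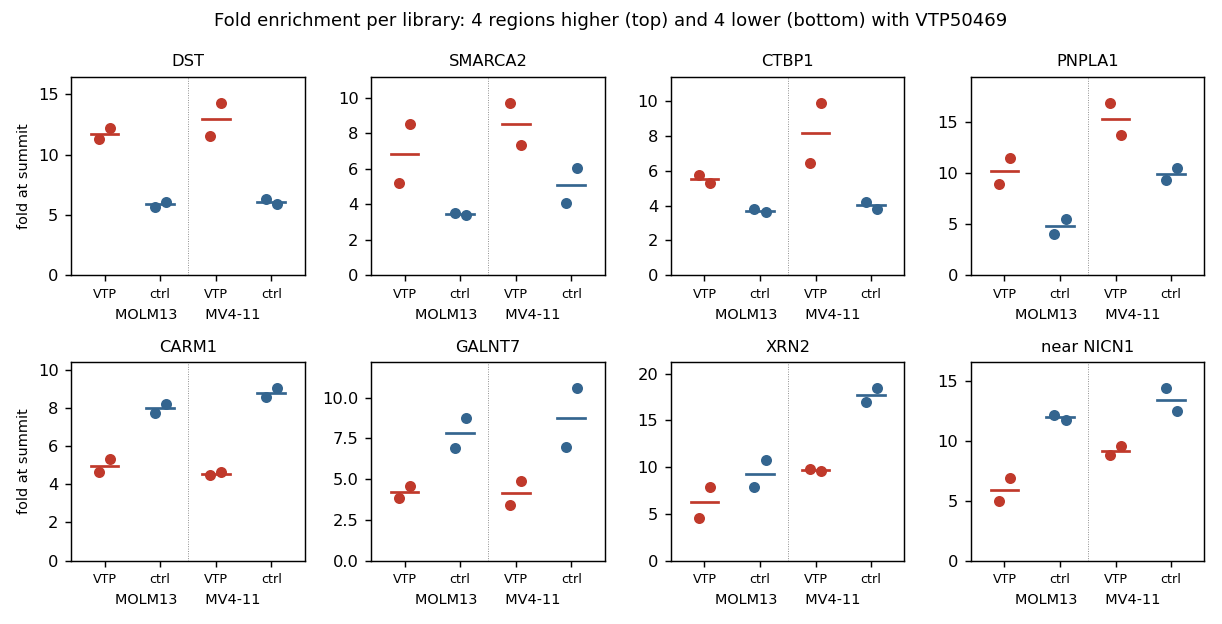
Fold enrichment at the summit (y axis, from 0) in each library for 4 of the regions higher with VTP50469 in both lines (DST, SMARCA2, CTBP1, PNPLA1) and 4 of the lower ones (CARM1, GALNT7, XRN2, near NICN1). Points are libraries, VTP50469 in red left of control in blue within each line, and bars are means of 2; in DST all VTP50469 libraries are at 11.3 or more and all controls at 6.28 or less.

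Of these 20 regions, 3 were called in all 4 OCI-AML3 libraries, 4 in none, and 13 in 1 to 3. Of all 36370 regions, 22826 (62.8%) were called in all 4 and 91.3% in at least 1. The 3 were those near NICN1 and near NIHCOLE and the one in MIR124-2HG, and their OCI-AML3 shifts were -0.26, 0.57 and 0.75. Their shifts in the MLL1-rearranged lines, in the fit of all 12 libraries, were -1.65, 1.32 and 1.26. The test of the difference gave adjusted p values of 0.706, 0.828 and 0.910 (limma).

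Peaks of all 12 libraries were merged anew for the comparison of lines. Over the 22845 regions called in all 12, the shift of the MLL1-rearranged lines minus that of OCI-AML3 passed an adjusted p of 0.05 in 0 regions (smallest adjusted p 0.442, limma), and in 785 lower and 761 higher ones at an unadjusted p under 0.05 (6.77% in all). The smallest p was that of a region by LINC01301 (chr8:60396985-60397671). Its shift was -0.86 in the MLL1-rearranged lines and 1.99 in OCI-AML3, a difference of -2.86 ± 0.49 (SE). A region in PDLIM5 (chr4:94534733-94535655), which encodes a scaffold of actin filaments, had the smallest p on the other side, with a shift of 1.34 in the MLL1-rearranged lines and -1.78 in OCI-AML3. The r between the shifts of the MLL1-rearranged lines and those of OCI-AML3 across these regions was 0.016.

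Promoters of MLL fusion targets were examined next. Of 14 promoters named by rule, 11 were open in all 8 libraries, and that of HOXA9 was called in 4, that of PBX3 in 3 and that of ITGAX in 1. None of the 11 passed the adjusted threshold, and 1, that of ITGAM, had an unadjusted p under 0.05. Of the 162 genes on all lists, 94 had a promoter open in all 8, of which 0 were lower and 2 higher at that unadjusted p (ITGAM and MNDA), against 1.36% lower and 1.64% higher of all 11004 promoter regions.

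The MEIS1 promoter (chr2:66434780-66435488), shown above, had folds of 6.11 and 6.56 in MOLM13 with VTP50469 against 9.36 and 6.17 in control, and of 7.71 and 6.91 in MV4-11 with VTP50469 against 8.39 and 8.99 in control. Its shift was -0.51 ± 0.31 (SE, adjusted p = 0.834, limma). The libraries were apart in MV4-11 and overlapped in MOLM13. MEF2C, a myeloid transcription factor gene, had promoter folds of 6.48 and 7.18 in MOLM13 with VTP50469 against 6.18 and 8.23 in control, and of 8.04 and 7.51 in MV4-11 with VTP50469 against 10.0 and 9.12 in control, again apart in MV4-11 only.

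JMJD1C, which encodes a jumonji-domain protein of the histone demethylase family, had overlapping promoter folds in both lines, with 11.2 and 14.3 in MOLM13 with VTP50469 against 14.3 and 12.9 in control, and 12.4 and 13.7 in MV4-11 with VTP50469 against 13.1 and 15.2 in control. The promoter of FLT3, a receptor tyrosine kinase gene, had 15.7 and 17.4 in MOLM13 with VTP50469 against 11.0 and 15.3 in control, and 16.0 and 13.9 in MV4-11 with VTP50469 against 16.2 and 13.8 in control. Its pairs of libraries were apart in MOLM13 and overlapped in MV4-11. The promoters of MYB, BCL2 and SENP6, a SUMO protease gene, had shifts of -0.15, 0.25 and 0.10, and that of CDK6, a cyclin-dependent kinase gene, 0.18. The sign of the FLT3 shift (0.22 by fold rank) turned with the rank of −log10 q and with the rank of recovered summit reads, and that of CDK6 also turned under other settings.

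Of the named myeloid promoters, those of ITGAM and LYZ were higher with VTP50469 in both lines. ITGAM, which encodes the integrin chain CD11b, had promoter folds (chr16:31259698-31260093) of 7.14 and 14.6 in MOLM13 with VTP50469 against 5.17 and 6.47 in control. In MV4-11 they were 16.6 and 18.4 with VTP50469 against 15.4 and 14.5 in control. The pairs did not overlap in either line, and the shift was 0.90 ± 0.35 (SE, n = 8, adjusted p = 0.735, limma). The gap in MOLM13 was much wider for 1 VTP50469 library than for the other.

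LYZ (lysozyme) had promoter folds of 9.62 and 12.4 in MOLM13 with VTP50469 against 8.21 and 8.34 in control, and of 14.8 and 14.4 in MV4-11 with VTP50469 against 11.3 and 12.01 in control. These did not overlap in either line (shift 0.55 ± 0.26, SE, adjusted p = 0.776, limma). At the promoter of MNDA, a nuclear antigen of myeloid cells, the folds were 13.8 and 16.7 in MOLM13 with VTP50469 against 11.4 and 13.8 in control, and 20.3 and 16.3 in MV4-11 with VTP50469 against 8.22 and 12.5 in control. LY96, which encodes the partner MD-2 of the receptor TLR4, had a shift of 0.30 ± 0.34 (SE). Other promoters of the differentiation list lay on either side. Shifts were -0.66 at CD86, -0.42 at TLR4 and -0.05 at CEBPD, against 0.40 at CEBPE and 0.13 at CD68. Those of CD86 and TLR4 were below 0 in each line. None of these differences passed the threshold over all regions.

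**Figure D3:**
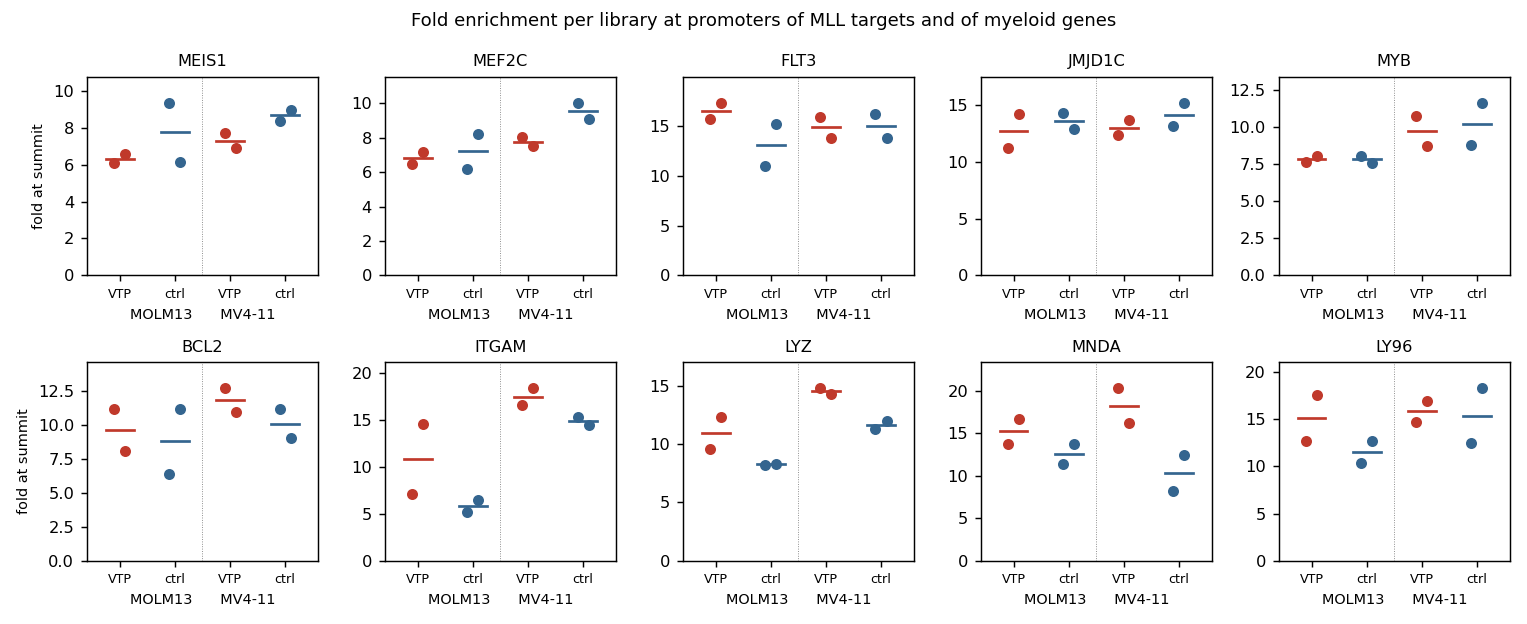
Fold enrichment at the summit (y axis, from 0) in each library at promoters of the fusion targets MEIS1, MEF2C, FLT3, JMJD1C, MYB and BCL2 and of the myeloid genes ITGAM, LYZ, MNDA and LY96. Points are libraries, VTP50469 in red left of control in blue within each line, and bars are means of 2; only at ITGAM and LYZ do the pairs stay apart in the same direction in both lines.

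Beyond promoters, the loci (gene body and 5 kb on each side) of 22 MLL target genes held 106 regions called in all 8 libraries. At an unadjusted p under 0.05, 1 was lower (0.943%) and 6 were higher (5.66%), against 3.39% and 3.04% of all regions. The median shift was 0.16, against 0.01 over all regions, but by the rank of recovered summit reads it was -0.02, so the direction depended on the value used. The study itself described several of these loci from the same data, by its own measure, and reported reduced peaks, as at MEIS1, SENP6 and CDK6 in MOLM13. The list's median by fold rank lay on the other side. As the data are the same, the direction of the list is no independent evidence. The 6 were a region in MYB, 13.7 kb from its start, a pair each in JMJD1C and in MBNL1, an RNA-splicing regulator gene, and one by ZEB2, a zinc-finger repressor gene.

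The MYB region (chr6:135195011-135195452) had folds of 6.44 and 9.36 in MOLM13 with VTP50469 against 4.21 and 5.37 in control, and of 6.87 and 6.85 in MV4-11 with VTP50469 against 5.29 and 4.83 in control. Its shift was 1.03 ± 0.28 (SE, adjusted p = 0.629, limma), and all 4 VTP50469 libraries stood above all 4 controls. The lower region lay in FLT3 (chr13:28047783-28048108), 52.5 kb from the start, with folds of 6.65 and 6.37 in MOLM13 with VTP50469 against 7.38 and 10.1 in control, and of 7.50 and 7.09 in MV4-11 with VTP50469 against 10.1 and 10.7 in control. Here no library of either treatment crossed over in either line, and the shift was -0.85 ± 0.27 (SE, adjusted p = 0.674, limma).

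The 20 differentiation genes held 40 such regions, 2 lower (5.0%) and 3 higher (7.5%), against 3.39% and 3.04% of all regions, with a median shift of 0.04. The lower ones were in CD86, a T cell costimulation ligand gene, and by ITGAX, which encodes CD11c, and the higher ones at the promoters of ITGAM and MNDA and by CEBPE, a transcription factor gene of granulocytes. The 7 regions of the HOXA cluster and the 2 of the HOXB cluster held 0 past that p. Of 32 regions of the stem and progenitor list, 2 were lower (6.25%) and 1 higher (3.12%), near the shares of all regions, and all 3 lay in MSI2, an RNA-binding protein gene. The response lists (AP-1, interferon, TNF and NF-kappaB, MYC targets, Wnt targets) had 0 or 1 region on either side, of 26, 12, 16, 16 and 17. The primary granule genes had 0 of 7, and 10 housekeeping genes had 1 lower and 1 higher of 19. Beside 3.39% and 3.04% of all regions, these lists and the HOXA and HOXB clusters hold too few regions for such counts to be read.

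Whole loci were then compared by the mean score of all their regions, over 3515 protein-coding genes with at least 3 regions called in all 8 libraries, a comparison added after the data were seen. The shared shift passed the threshold in 0 loci (smallest adjusted p 0.623, limma), with 102 lower and 157 higher at an unadjusted p under 0.05 (7.37% in all). CLSPN was the lowest at -0.71 ± 0.15 (SE, 3 regions) and SMARCA2 was at 0.66 ± 0.15 (SE, 3 regions). Each mean held a region named above.

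Of the 17 MLL target loci, 14 had a shift above 0, against 52.5% of all loci, with a median of 0.11 against 0.01. By the rank of recovered summit reads 9 of 17 were above 0 (median 0.02), and with 1 library left out in turn 11 to 15 were. JMJD1C stood at 0.42 ± 0.16 (SE, adjusted p = 0.664, limma), with 0.33 in MOLM13 and 0.51 in MV4-11. MYB was at 0.39 ± 0.15, BMI1, a Polycomb gene, at 0.36 ± 0.16 and MEIS1 at 0.21 ± 0.16 (SE), whereas MYC, TCF4 and FLT3 lay at -0.28, -0.13 and -0.08. The promoter and the locus mean had opposite signs at MEIS1 and JMJD1C, and also at MYB, MEF2C, FLT3, RUNX1, ZEB2 and IGF2BP2. They had the same sign at CDK6, MYC, BCL2, TCF4, BMI1 and MBNL1. Of 7 differentiation loci 4 were above 0, led by CEBPE at 0.38 ± 0.15 and ITGAM at 0.35 ± 0.16 (SE), while ITGAX was at -0.27 ± 0.17.

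**Figure D4:**
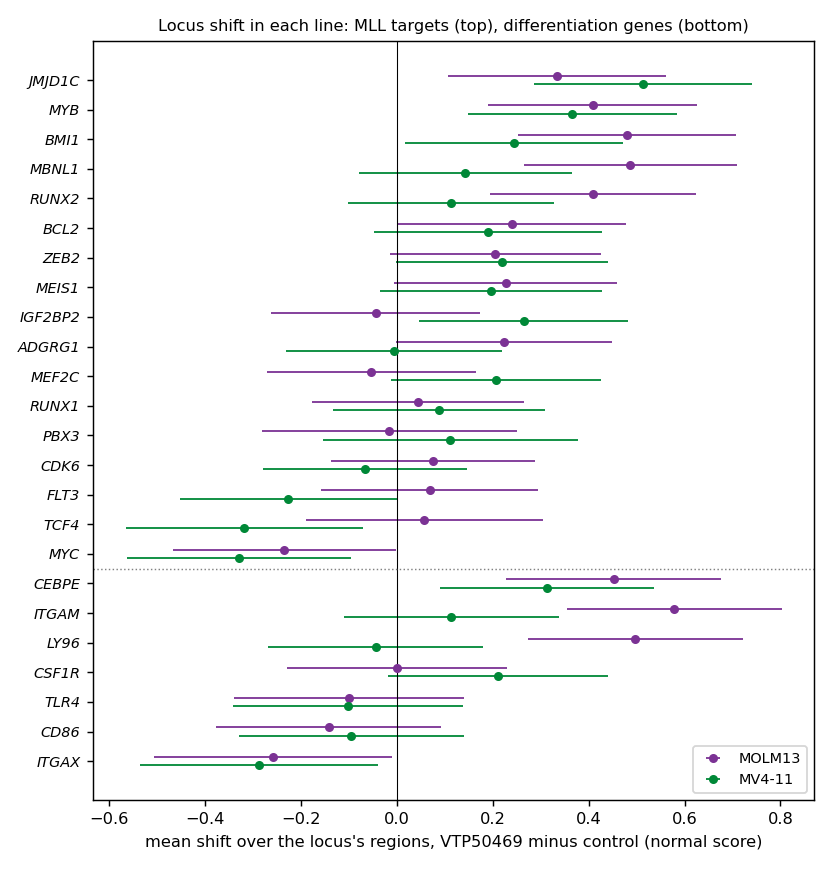
Mean shift (x axis, normal scores, VTP50469 minus control) over the regions of each locus in MOLM13 (purple) and MV4-11 (green) for 17 MLL target genes (top) and 7 differentiation genes (bottom), with bars of 1 SE. JMJD1C, MYB, BMI1 and CEBPE lie above 0 in both lines and MYC and ITGAX below 0 in both, none past the adjusted threshold.

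A second view was presence. A region was lost in a line when both control libraries and neither VTP50469 library called it, and gained in the reverse case. MOLM13 had 2020 lost (0.772% of 261532 regions) and 5097 gained (1.95%), and MV4-11 had 5407 lost (2.07%) and 3761 gained (1.44%). In MOLM13 the VTP50469 libraries also held more peaks than the controls, and the part of this in the gains was not tested. Of the 2591 regions called in 2 libraries of each line, 79 were lost in both (3.05%) and 94 gained in both (3.63%). Another 124 were gained in MOLM13 and lost in MV4-11 (4.79%), and 28 were lost in MOLM13 and gained in MV4-11 (1.08%). In all, 173 regions changed alike and 152 oppositely. The 79 were 3.91% of the losses of MOLM13 and 1.46% of those of MV4-11, and the 94 were 1.84% of the gains of MOLM13 and 2.499% of those of MV4-11.

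**Figure D5:**
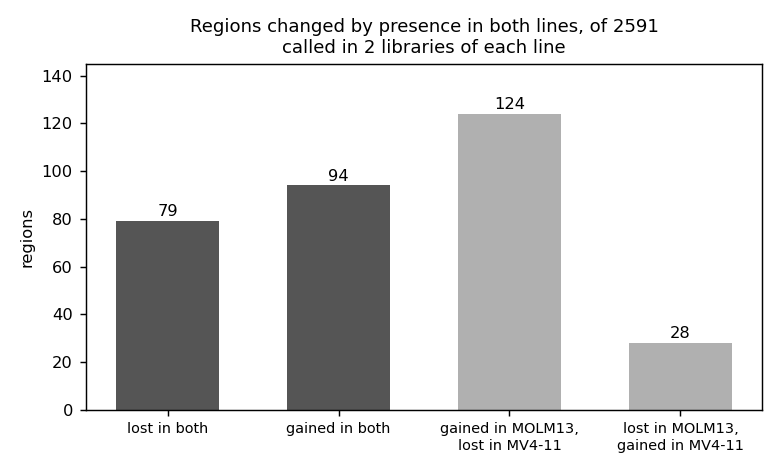
Number of regions (y axis, from 0) that changed by presence in both lines, among 2591 regions called in exactly 2 libraries of each line; dark bars are changes alike in both lines and light bars opposite ones. The largest class, 124, was gained in MOLM13 and lost in MV4-11, and the smallest, 28, was the reverse.

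Most of these regions lay away from promoters. The regions lost in both had a median width of 261 bp and a median of 12 reads at the strongest summit, those gained in both 262 bp and 11 reads, against 251 bp and 11 reads for the 2591, and 627 bp and 33 reads for regions called in all 8. Of those lost in both 6 (7.59%) and of those gained in both 1 (1.06%) lay at a promoter, against 6.87% of the 2591. A region with no peak was not called at this depth and need not be closed. In OCI-AML3, 31 of the 79 and 38 of the 94 were called in at least 1 library, and 0 of either was lost or gained there. Of the 2591, 1027 (39.6%) were called in OCI-AML3, with 68 lost and 25 gained there, so that the shares called (39.2% and 40.4%) were near that background. The loci of the MLL target, HOXA, HOXB and differentiation genes held 0 regions lost in both and 0 gained in both, but they held only 6, 1, 0 and 2 of the 2591 regions in which this could be seen, too few to read the zeros. The MLL target loci held 1 opposite region, in SATB1 (chr3:18401552-18401895), gained in MOLM13 and lost in MV4-11.

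The firmest loss in both lines, by the lowest −log10 q of the 4 calling libraries, lay between genes, 65.3 kb from the start of RPE65 (chr1:68384269-68384679). Its −log10 q was 10.1 and 5.89 in MOLM13 control and 6.14 and 6.09 in MV4-11 control, and no VTP50469 library called it, although all 4 OCI-AML3 libraries did. The next lay in MARK4, a microtubule affinity-regulating kinase gene (chr19:45300582-45300960), with 7.24 and 5.23 in MOLM13 control and 5.02 and 7.03 in MV4-11 control. One in MRPL1, a mitochondrial ribosomal protein gene (chr4:77899721-77900133), had 8.17 and 4.99 in MOLM13 control and 12.3 and 7.73 in MV4-11 control. The other 7 of the 10 firmest lay at the promoter of LOC107986606, in PDCD11, SLC2A10 and CSTF3-DT, by WDR64, and nearest to LINC02845 and LMO4, a LIM-domain cofactor gene.

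Of the gains in both lines, a pair shared the highest value of the lowest −log10 q. One lay in PLEKHA5 (chr12:19288755-19288926), with a −log10 q of 5.50 and 5.74 in MOLM13 with VTP50469 and of 6.10 and 11.3 in MV4-11 with VTP50469, and no call in a control of these lines or in OCI-AML3. The other, nearest to LOC124905987, had 5.50 and 12.2 in MOLM13 with VTP50469 and 6.10 and 8.73 in MV4-11 with VTP50469, and was called in all 4 OCI-AML3 libraries. One in SLC38A1, an amino acid transporter gene (chr12:46215116-46215439), had 3.98 and 5.59 in MOLM13 with VTP50469 and 4.73 and 7.60 in MV4-11 with VTP50469. Others of the 10 firmest lay in LYRM4, RIMS4, NME7 and UFL1-AS1, and nearest to PIK3C2A and BRMS1L.

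Differences between the lines were looked at next. For strength, the difference between the lines passed the adjusted threshold in 0 of 36370 regions (smallest adjusted p 0.261, limma) and an unadjusted p of 0.05 in 2068 (5.69%). The smallest p was that of the promoter of LOC100288069 (chr1:778572-778786). Its folds were 5.84 and 7.26 in MOLM13 with VTP50469 against 11.8 and 13.5 in control, but 24.6 and 27.0 in MV4-11 with VTP50469 against 13.2 and 16.1 in control. The difference in shift, MOLM13 minus MV4-11, was -4.07 ± 0.56 (SE), and with peaks of −log10 q under 5 left out it passed (-4.58, adjusted p = 0.031, limma).

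GRAMD1B, a sterol transfer gene, held a region (chr11:123465755-123466247) with 11.0 and 11.2 in MOLM13 with VTP50469 against 3.22 and 3.84 in control, and 9.33 and 11.1 in MV4-11 with VTP50469 against 10.8 and 11.7 in control. The pairs were apart in MOLM13 and overlapped in MV4-11. A region in EPHB2, an ephrin receptor gene (chr1:22745992-22746578), had 8.12 and 10.1 in MOLM13 with VTP50469 against 4.43 and 4.51 in control, and 5.98 and 5.03 in MV4-11 with VTP50469 against 11.1 and 10.1 in control. A region in KIF16B, a kinesin gene, differed the same way, and regions in NMT1 and by SULT1C3 the other way. By presence the firmest opposite regions were gained in MOLM13 and lost in MV4-11 in HDAC4, a histone deacetylase gene, in LINC02071 and near MGST2. Those lost in MOLM13 and gained in MV4-11 lay at the promoter of VIRMA and in WWOX and SCN2A.

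By place, promoter regions had a median shift of -0.05 in MOLM13 and 0.09 in MV4-11, while regions between genes had 0.01 and -0.04. Medians over chromosomes stayed between -0.03 and 0.05 in either line. At an unadjusted p under 0.05, 1.36% of promoter regions were lower and 1.64% higher, against 4.13% and 3.83% of those in gene bodies and 4.67% and 3.46% of those between genes; these shares were not tested against each other.

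Of the 11004 promoter regions, 7902 held the start of their gene and had a RefSeq promoter window of 300 bases (250 before to 50 after the start). The higher and lower promoters are those of the 7902 with an unadjusted p under 0.05 (limma), and none of them passed the adjusted threshold. PU.1-like GAGGAAG, searched on both strands and sharing GGAAG with the ETS letters CCGGAAG, stood in 26 of the 121 higher promoters (21.5%) and 10 of the 84 lower ones (11.9%), against 14.35% of the 7902 and 13.4% of all 27305 windows. The CEBP-like TTGCNNAA stood in 12.4% of the higher and 8.33% of the lower ones, against 7.43% of the 7902 and 10.6% of all windows. The AP-1-like TGANTCA stood in 3.31% of the higher and 10.7% of the lower ones, against 4.95% and 7.76%. CCGGAAG (21.5% and 19.0%), TGTGGT (9.09% and 8.33%) and AACTGNC, the MYB-like letters (8.26% and 10.7%), are set beside 21.0%, 9.14% and 9.93% of the 7902. Of all windows, 10.7% held CCGGAAG, 13.1% TGTGGT and 11.8% AACTGNC. The median GC content was 63.7% in the higher and 66.8% in the lower promoters, against 66.0%. The NRF1 letters stood in 15.7% of the higher and 19.05% of the lower ones, against 13.1% of the 7902. MEIS letters stood in 4.96% and 4.76%, against 2.72%, and HOX-PBX letters in 2.48% and 1.19%, against 1.13%. Other letters searched are not reported here. These counts are small and describe letters, not bound sites.

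TTC28, whose promoter is shown above, had folds of 5.19 and 5.94 in MOLM13 with VTP50469 against 6.27 and 8.09 in control, and of 6.599 and 6.14 in MV4-11 with VTP50469 against 10.8 and 10.7 in control (shift -1.04 ± 0.27, SE, adjusted p = 0.602, limma). IP6K1, an inositol hexakisphosphate kinase gene, had 17.3 and 19.2 in MOLM13 with VTP50469 against 12.2 and 11.9 in control, and 18.9 and 17.0 in MV4-11 with VTP50469 against 11.9 and 14.4 in control (shift 1.096 ± 0.27, SE). LOC105377557 had 9.61 and 7.98 in MOLM13 with VTP50469 against 4.49 and 4.29 in control, and 11.4 and 13.3 in MV4-11 with VTP50469 against 7.52 and 9.45 in control. In all 3 the pairs were apart in both lines, which is how they were chosen.

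At the level of whole libraries, MLL target loci held 31.7 and 30.3 per 10000 peaks in MOLM13 with VTP50469 against 35.2 and 31.3 in control, and 26.7 and 27.0 in MV4-11 with VTP50469 against 29.2 and 34.1 in control. Both VTP50469 libraries lay below both controls in MV4-11, and in MOLM13 1 of them lay just above 1 control. The mean difference was -3.55 (exact permutation test within lines, two-sided, 36 relabellings, p = 0.111, adjusted over 7 measures 0.778), where 0.056 is the smallest p the design allows. With peaks of −log10 q under 5 left out it was -0.488 (p = 0.722, same exact test), and with 1 library left out it ran from -4.76 to -2.35. The share of peaks at promoters was 18.2% and 16.9% in MOLM13 with VTP50469 against 21.2% and 18.8% in control, and 15.9% and 13.3% in MV4-11 with VTP50469 against 15.3% and 14.6% in control. The other 5 measures had p values of 0.389 to 1.0.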

How the data were processed

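Per the submitters' processing notes, the authors made the files on hg38. Reads were written with bcl2fastq 2.17 and trimmed with Trimmomatic 0.33, Bowtie 1.1.2 is the aligner listed, peaks came from MACS2 2.1.0, and deepTools is also listed. The supplement to the study names a different aligner. Peaks were called per library. Each deposited peak has a score, a fold enrichment at the summit, a −log10 p, a −log10 q and a summit offset, as the authors' caller gave them. Read totals are not in these columns, so depth is unknown. Summit reads recovered from the columns were whole for 94.8% to 100.0% of peaks (tolerance 0.001), the smallest being 4 or 5, which limits what weak peaks can show. The lowest −log10 q was 1.30.

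Peaks of chromosomes 1 to 22 that overlapped by at least 1 bp were merged over the 8 libraries. Folds were ranked within a library, turned into normal scores and fitted with limma 3.58.1 (R 4.3.3), with Benjamini-Hochberg adjustment over all regions. The shared shift came from a fit with line and 1 common treatment term. The shift of each line and the difference between the lines came from fits that added the interaction of line and treatment. The comparison with OCI-AML3 had a treatment term for each line. Tables used Python 3.11.15, numpy 2.4.6, scipy 1.17.1 and pandas 2.3.3. The fits were tested on simulated data. A promoter lay within 1000 bp of a start, a locus within 5 kb of a gene. The hg38 genome was not used here, so exons and introns were not assigned.

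The text names the 10 lower and 10 higher regions with the smallest p among those not overlapping in either line, the 10 firmest losses and gains in both lines, the 3 firmest of each opposite kind, the 3 regions each way with the smallest p between lines, and 14 promoters, plus genes of the target and differentiation lists past a threshold. Some items that these rules select are not reported here. OCI-AML3 regions, loci, motif promoters and MNDA were named after their values were seen. The members and the 16 lists of 162 genes were chosen with earlier results of these data known. Alternatives were other values (log2 fold, rank of −log10 q, rank of summit reads), regions called in at least 6 libraries, a −log10 q of at least 5, an overlap of 50 bp, the replicate block and each library left out.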

Additional observations from a re-analysis of the deposited data

Results flagged for a closer look

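Several results differed between the lines. By presence, 124 regions were gained in MOLM13 and lost in MV4-11, and 28 were lost in MOLM13 and gained in MV4-11; this difference was not tested. By strength, 951 regions stood apart as higher in MOLM13 and lower in MV4-11 with VTP50469, and 1083 the other way, also not tested.

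The EPHB2 locus, the mean of 3 regions in an ephrin receptor gene, was the 1 locus of 3515 whose shift differed between the lines past the adjusted threshold, at 1.77 ± 0.32 (SE, MOLM13 minus MV4-11, adjusted p = 0.048, limma), with a shift of 0.85 in MOLM13 and -0.91 in MV4-11. The call rests on 1 of these regions, already named for its small p, which differed by 3.35, against 1.13 and 0.82 for the others. The difference was 0.95 by log2 fold, 1.75 by the rank of −log10 q and 1.47 by the rank of summit reads, and 1.59 to 1.94 with 1 library left out. The promoter of LOC100288069 differed by -4.58 between the lines when peaks with a −log10 q under 5 were left out (adjusted p = 0.031, limma).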

How the results depend on the processing

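The 20 named shared regions kept their direction under the alternatives run, except that with a −log10 q of at least 5 only 5 of them had a value (same direction). With regions called in at least 6 libraries, a library without a call was ranked lowest. There 2060 regions were lower and 1909 higher at an unadjusted p under 0.05. At that p 1601 and 1907 differed between the lines, lower and higher in MOLM13. This fit and that of the stricter q tested other sets of regions than the main fit. Their counts, given without shares, thus cannot be set against those of the main fit. With a −log10 q of at least 5, 1 region was higher past the adjusted threshold (DST), and 848 were lower and 714 higher at the unadjusted one, and 1 differed between the lines past the adjusted threshold and 561 lower and 746 higher at the unadjusted one. Each line fitted alone gave 51 lower and 55 higher in both. Under the same stricter q, 42 regions were lost and 52 gained in both lines. Counting regions called in at least 3 of 4 libraries of one kind and none of the other gave 712 lost in both, 973 gained in both, 1037 gained in MOLM13 and lost in MV4-11, and 432 the reverse. Except for the construction of these counts (more regions tested, fewer peaks used, fewer libraries needed), the cause was not tested.

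With 1 library left out, fewer libraries are needed by construction: 134 to 360 regions were lost in both, 135 to 401 gained in both, 182 to 464 gained in MOLM13 and lost in MV4-11, and 45 to 197 the reverse. The unadjusted counts were 1108 to 1320 lower and 966 to 1150 higher for the shared shift, and 727 to 1093 lower and 943 to 1523 higher between the lines. The lone library left in a group was assumed to vary like the others.

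The stricter q turned the difference (VTP50469 minus control) in peak number to -446.5, in covered length to -0.00572 Mb, in median fold to 0.11 and in differentiation peaks per 10000 to 0.868, and made that in median summit reads 0.0. With 1 library left out these differences ran from 236 to 14623 peaks, from -0.474 to 2.37 Mb, from -0.295 to -0.037 in fold, from -0.925 to 0.453 differentiation peaks per 10000 and from -0.5 to 0.0 summit reads. The differentiation difference was 0.453 without MOLM13 control replicate 1 and 0.032 without MV4-11 VTP50469 replicate 2, and covered length was -0.474 Mb without that VTP50469 library. Among promoters, the FLT3 shift was -0.085 by the rank of −log10 q and -0.15 by that of summit reads. The CDK6 shift was -0.020 by log2 fold, -0.0076 by the rank of summit reads, -0.20 with at least 6 libraries, -0.08 without MOLM13 VTP50469 replicate 1 and -0.19 without MOLM13 control replicate 2, and ran from -0.19 to 0.45 with 1 library left out. That of SENP6 ran from -0.0091 (without MOLM13 control replicate 2) to 0.28.

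No pairing of the libraries by replicate number was seen (correlation of deviations 0.038 in MOLM13 and 0.035 in MV4-11), and the labels do not state whether there was one. With the replicate block 0 regions passed the adjusted threshold, and 1258 were lower and 1109 higher at the unadjusted one, against 950 and 1195 between the lines. With the block, 0 loci passed the adjusted threshold for the shared shift, and 0 regions in the comparison with OCI-AML3. The EPHB2 locus difference and the fits with the stricter q were not run with the block.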
